A study of Mus musculus with 6 samples.

Results

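Immunoglobulin transcripts were followed in mouse γδT17 libraries, made from γδ T cells of the kind that secretes interleukin-17. The genes were all variable (V) segments whose symbols begin with Ighv, Igkv or Iglv, together with the 11 constant region genes Ighm, Ighd, Igha, Ighg1, Ighg2b, Ighg2c, Ighg3, Igkc, Iglc1, Iglc2 and Iglc3. The 6 deposited tables listed 229 such genes among 26771 in all, of which 113 were Ighv, 102 Igkv and 3 Iglv segments and 11 were constants. Every mouse was C57BL/6 with a deleted T cell receptor β chain gene (TCRβ-/-), so all libraries share the absence of αβ T cells, while the labels report no deletion that would remove B cells from the spleen. Initial cells were taken from splenocytes by sorting before any culture, and the sources used here do not give the gate. Induced cells were collected on day 8 of a culture of splenocytes driven by IL-1β and IL-23 and were isolated with a magnetic kit for T cells, and the labels put the IL-17A positive share above 90%. Each group held 3 libraries, 1 from each of mice A, B and C. Because Initial cells were sorted and Induced cells were magnetically isolated, culture and isolation cannot be told apart.

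An antibody is built from heavy chains and light chains of the kappa or lambda type. Each B cell joins 1 V segment to diversity or joining segments and splices the result to a constant region, and the heavy constant region sets the class, IgM and IgD in naive cells and IgG, IgA or IgE after class switching. Rearrangement and high transcription of these loci belong to the B cell lineage. Mature γδ T cells rearrange the T cell receptor loci instead and are not known to make complete antibodies.

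Immunoglobulin messages were present at high level before culture and fell to a small residue in every Induced library. Summed over the 229 genes, FPKM (fragments scaled to transcript length and library size, a level per length) was 5423, 6751 and 5765 in the Initial libraries of mice A, B and C and 235, 148 and 93.3 in their Induced libraries. The groups did not overlap, and the ratio of their means was 37.7. These genes held 1.23, 1.56 and 1.26% of all summed FPKM in the Initial libraries and 0.0526, 0.0331 and 0.0206% in the Induced libraries. In bulk RNA, fewer B lineage cells and less immunoglobulin RNA per cell cannot be told apart. Depth was estimated at 19100000 to 22700000 fragments per library, so that 1 fragment in a V segment of median length was worth 0.123 to 0.146 FPKM and 3 fragments 0.369 to 0.439 FPKM. Many Induced V segment values lie below that level and rest on a fragment or a few.

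Of the 229 genes, 144, 163 and 151 reached 1 FPKM in the Initial libraries A, B and C, and 31, 18 and 8 did so in the Induced libraries. As listed, 57 genes occurred only in Initial libraries and 1 only in an Induced library. Fewer genes of all kinds were listed after culture too. The Initial libraries A, B and C listed 20504, 21844 and 20419 genes in all, and the Induced libraries 16762, 16550 and 17033. Every Initial library lay above every Induced library for 168 of the 229, where the same held for 24.8% of all listed genes. Tested with limma on log2(FPKM + 1) without a filter on low values, 146 of the 229 (63.8%) fell with an adjusted p under 0.05, where 17.9% of all listed genes did, and 0 rose. By locus the falls were 61 of 113 Ighv, 75 of 102 Igkv, 3 of 3 Iglv and 7 of 11 constants. The 23 V pseudogenes, which encode no full chain, stayed at or under 1.36 FPKM in every library, and 2 of them fell.

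The fit used for single genes below keeps genes with at least 1 FPKM in at least 3 libraries, and there 33.1% of the 11265 genes tested were lower in Induced cells. The filter kept 124 of these genes, all of them through their Initial values, so neither their number called nor their fold changes as a set are evidence of a fall. Of the 124, 123 fell, 0 rose and 1, Igkv6-13, did not pass. Without the filter, the median log2 fold change was -2.17 over all 229 and -0.02 over all listed genes. The other 105, which reached at most 27.4 FPKM in any library, are described by the counts above.

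Among the heavy chain constants, IgM transcripts dominated before and after culture. Ighm (chromosome 12, 113418558 to 113422730, GRCm38), the constant region of IgM, stood at 1288, 1477 and 1228 FPKM in the Initial libraries of mice A, B and C and at 70.5, 48.5 and 45.7 FPKM in the Induced libraries. Its groups were far apart, with a log2 fold change of -4.60 (SE 0.16, limma adjusted p = 3.4e-07). Ighd (chromosome 12, 113406604 to 113416324), the IgD constant region that naive B cells splice from the same precursor as Ighm, stood at 29.2, 37.7 and 34.99 FPKM before culture and at 6.59, 3.97 and 1.70 FPKM after it. It fell by 2.90 on the log2 scale (SE 0.36, limma adjusted p = 0.00047), and its ratio to Ighm went from 0.0226, 0.0255 and 0.0285 to 0.0935, 0.0818 and 0.0371.

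Switched classes were a small part of the heavy chain constants, 1.22, 2.24 and 3.13% of their FPKM in the Initial libraries and 3.37, 1.37 and 0.987% in the Induced libraries. Ighg3, the class IgG3, was the only switched gene above 10 FPKM in every Initial library, at 15.2, 32.3 and 16.4 FPKM, and fell to 1.85, 0.114 and 0.139 FPKM (log2 fold change -3.78, SE 0.45, limma adjusted p = 0.00035). Igha, the class IgA, stood at 0.331, 0.566 and 13.9 FPKM in the Initial libraries, so that a single library, from mouse C, held nearly all of it. Ighg2b showed the same library highest, with 0.504, 1.73 and 10.3 FPKM. In the Induced libraries Igha ran from 0.284 to 0.512 FPKM and Ighg2b from 0 to 0.182 FPKM. Neither passed the filter, and without it their adjusted p-values from limma were 0.39 and 0.11. Ighg1 stayed at or under 0.0432 FPKM and Ighg2c, which C57BL/6 mice carry in place of Ighg2a, at or under 0.208 FPKM in all 6 libraries.

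**Figure D1:**
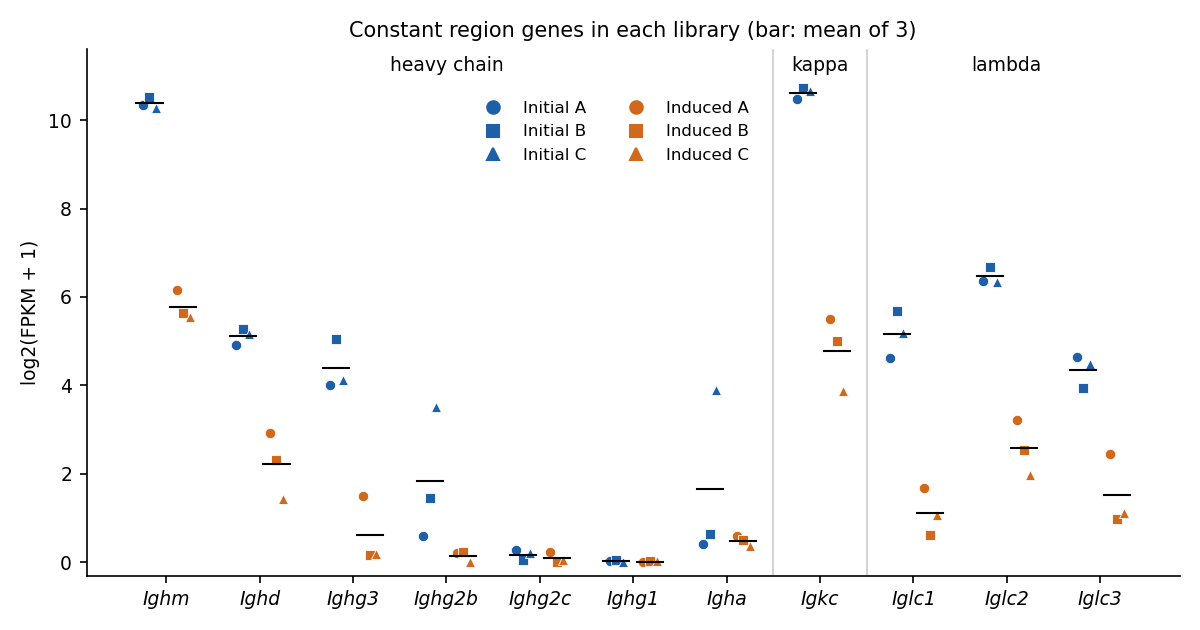
Level of the 11 constant region genes, as log2(FPKM + 1), in each of 6 libraries, with Initial libraries in blue, Induced libraries in orange, the mouse by marker shape and the mean of 3 libraries as a bar. Ighm and Igkc were highest in both groups, and Igha and Ighg2b were raised in Initial library C.

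The light chain constants fell as well. Igkc (chromosome 6, 70726435 to 70726966), the only kappa constant region, stood at 1420, 1701 and 1602 FPKM before culture and at 44.3, 30.9 and 13.7 FPKM after it. Its log2 fold change, -5.83 (SE 0.40, limma adjusted p = 3.1e-05), was the largest fall among the constants tested. Iglc2, the constant region that joins most often with Iglv2, stood at 81.5, 101.9 and 80.3 FPKM before and at 8.33, 4.86 and 2.95 FPKM after culture. It fell by 3.88 on the log2 scale (SE 0.30, limma adjusted p = 4.3e-05). Iglc1 stood at 23.6, 50.7 and 35.2 FPKM in the Initial libraries and at 2.19, 0.547 and 1.09 FPKM in the Induced libraries, and Iglc3 at 24.1, 14.3 and 21.4 and at 4.46, 0.981 and 1.16 FPKM. Both fell, with log2 fold changes of -4.04 (SE 0.35) and -2.84 (SE 0.42) and limma adjusted p-values of 6.1e-05 and 0.0010. In no constant that was tested did an Induced library reach an Initial one. Of their annotated transcripts, Iglc2 and Iglc3 share at most 1.32% of runs of 75 bases, and Ighm, Ighd and Igkc share none with any other gene.

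V segments of the heavy chain had low levels each, at most 92.7 FPKM in any library. Ighv6-3 (chromosome 12, 114391712 to 114392169) had the highest mean. The end of its coding exon, on the minus strand, is shown as the segment that leads the Ighv group and because it shares no run of 75 bases with another gene. The capitals mark the codon of the conserved cysteine before the junction.
Ighv6-3, chr12:114391712-114392011: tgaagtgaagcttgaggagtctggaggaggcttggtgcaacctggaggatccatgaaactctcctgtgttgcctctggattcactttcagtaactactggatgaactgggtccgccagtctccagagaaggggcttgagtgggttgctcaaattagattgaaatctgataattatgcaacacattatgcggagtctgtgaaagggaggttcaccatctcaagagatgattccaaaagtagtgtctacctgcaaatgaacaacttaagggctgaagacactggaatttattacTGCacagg
Its level was 44.8, 92.7 and 59.9 FPKM in the Initial libraries and 2.39, 0.524 and 0 in the Induced libraries, where the table of mouse C has no row for it. It fell by 5.21 on the log2 scale (SE 0.49, limma adjusted p = 0.00013). Ighv3-6, with more even levels, stood at 30.5, 39.7 and 25.4 FPKM before culture and was listed after it only for mouse A, at 0.308 FPKM (log2 fold change -4.89, SE 0.18, limma adjusted p = 3.2e-07). Ighv1-80 was uneven between mice, at 20.9, 9.01 and 71.8 FPKM, and after culture was listed only in library B, at 0.164 FPKM.
The 10 Ighv segments with the highest means over the 6 libraries were ranked mainly by their Initial levels. Their changes as a set are therefore not evidence of a fall. All 10 fell, with log2 fold changes from -3.43 for Ighv1-26 to -5.21 for Ighv6-3. Besides these, the 10 held Ighv4-1, Ighv10-1, Ighv7-3, Ighv1-12, Ighv1-64 and Ighv1-55. No Ighv segment reached 5 FPKM in an Induced library, and only 2 reached 1 FPKM, both in the library of mouse A.

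**Figure D2:**
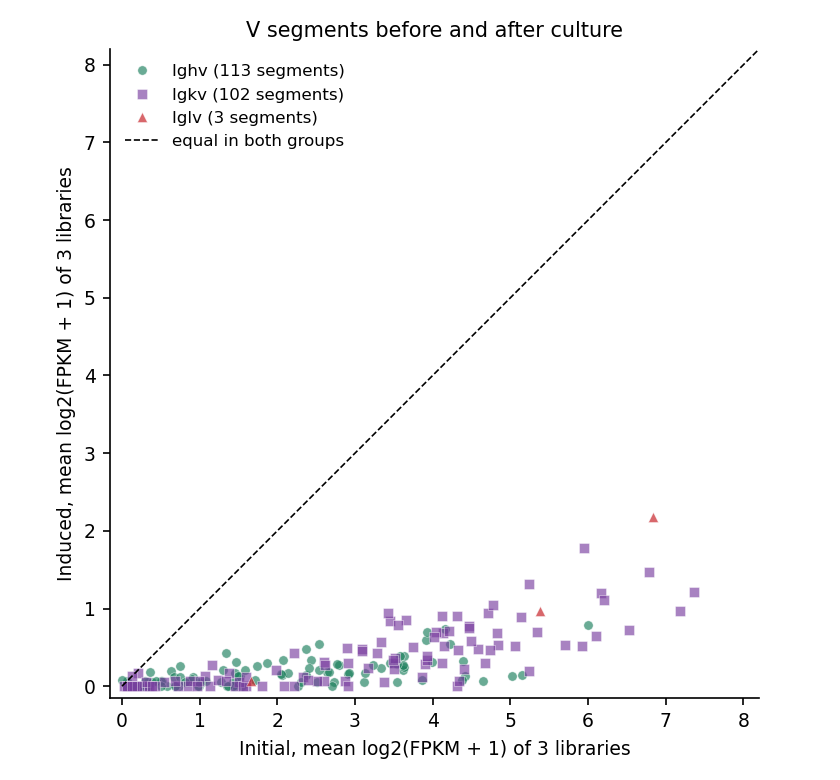
Each point is 1 V segment, placed by its mean log2(FPKM + 1) over 3 Initial libraries (horizontal) and 3 Induced libraries (vertical), with the locus by colour and shape and the dashed line at equal levels. Segments with high levels before culture lie far under the line, segments near 0 in both groups lie on or close to it, and the highest after culture, Iglv2, averages just over 2 on this scale.

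Kappa V segments made up the largest part of V segment FPKM. Igkv1-117 (chromosome 6, 68121046 to 68121827) and Igkv1-110 (chromosome 6, 68270485 to 68271267) had the highest means, and both belong to the Igkv1 family. The last 300 bases of their coding exons are shown because the segments are 96.7% identical there, with 10 differences, and because 30.9 and 31.2% of the runs of 75 bases in their transcripts are shared between them. Both lie on the plus strand, and the capitals mark the differing bases.
Igkv1-117, chr6:68121528-68121827: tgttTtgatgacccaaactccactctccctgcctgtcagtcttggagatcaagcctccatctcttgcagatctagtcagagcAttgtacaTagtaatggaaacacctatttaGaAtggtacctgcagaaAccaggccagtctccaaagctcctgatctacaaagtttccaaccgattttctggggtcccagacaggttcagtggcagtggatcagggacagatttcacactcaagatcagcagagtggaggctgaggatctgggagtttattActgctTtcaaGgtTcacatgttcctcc
Igkv1-110, chr6:68270968-68271267: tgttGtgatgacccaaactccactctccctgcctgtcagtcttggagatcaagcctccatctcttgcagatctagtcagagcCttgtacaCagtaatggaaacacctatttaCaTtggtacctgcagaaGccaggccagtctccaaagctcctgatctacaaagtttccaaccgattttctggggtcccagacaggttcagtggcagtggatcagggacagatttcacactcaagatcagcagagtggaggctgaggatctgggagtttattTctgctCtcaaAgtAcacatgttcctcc
The sources used here do not say how the counting divided reads from the common stretches, and the split between the pair is uncertain. Igkv1-117 stood at 80.1, 239 and 229.9 FPKM in the Initial libraries and at 2.41, 1.52 and 0.448 FPKM in the Induced libraries. Igkv1-110 stood at 119.6, 134.6 and 186 FPKM before culture and at 2.48, 0.754 and 0.223 FPKM after it. Both fell, by 6.15 (SE 0.51, limma adjusted p = 7.5e-05) and 6.21 (SE 0.39, limma adjusted p = 2.2e-05) on the log2 scale.
Kappa segments outside this pair fell too. Igkv8-24 stood at 67.7, 70.2 and 65.7 FPKM before culture, the most even of the leading segments, and at 0.446, 1.32 and 0.134 FPKM after it (log2 fold change -5.46, SE 0.24, limma adjusted p = 9.9e-07). Igkv8-27, which shares no run of 75 bases with another gene, stood at 72.6, 86.6 and 60.8 FPKM before and at 0.921, 3.37 and 0.186 FPKM after culture (log2 fold change -5.10, SE 0.46, limma adjusted p = 0.00012). Igkv6-15 kept the highest kappa segment level after culture, at 6.78 FPKM in Induced library A, with 2.70 and 0.414 in B and C, and its Initial levels were 74.2, 80.4 and 37.9 FPKM. It fell by 4.17 on the log2 scale (SE 0.64, limma adjusted p = 0.0014).
The 10 leading Igkv segments were likewise ranked mainly by their Initial levels, so their changes as a set are not evidence of a fall. All 10 fell, with log2 fold changes between -4.17 and -6.21. The others were Igkv10-96, Igkv4-86, Igkv1-135, Igkv9-120 and Igkv4-59, of which Igkv4-59 shares 42.5% of its runs of 75 bases with 10 other Igkv4 segments. The shared part is smaller in the other 4, at 7.52% for Igkv4-86, 10.04% for Igkv9-120, 15.6% for Igkv1-135 and 1 run in 5 for Igkv10-96. Over all 218 V segments, 139 share at least 1 such run with another gene and 9 share more than 50%, so levels of close relatives are less certain than sums over them.

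Lambda V segments are few in the mouse, and all 3 listed ones fell. Iglv2 (chromosome 16, 19260401 to 19260859) and Iglv1 (chromosome 16, 19085017 to 19085500) are shown because they too are close copies, on the minus strand, with 8 differences over 300 bases (97.3% identical), marked in capitals.
Iglv2, chr16:19260401-19260700: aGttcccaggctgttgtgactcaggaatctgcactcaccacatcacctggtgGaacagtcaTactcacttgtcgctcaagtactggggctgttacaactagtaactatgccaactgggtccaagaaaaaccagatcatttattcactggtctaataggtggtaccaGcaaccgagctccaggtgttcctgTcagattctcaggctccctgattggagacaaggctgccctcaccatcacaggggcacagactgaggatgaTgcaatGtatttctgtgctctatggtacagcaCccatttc
Iglv1, chr16:19085017-19085316: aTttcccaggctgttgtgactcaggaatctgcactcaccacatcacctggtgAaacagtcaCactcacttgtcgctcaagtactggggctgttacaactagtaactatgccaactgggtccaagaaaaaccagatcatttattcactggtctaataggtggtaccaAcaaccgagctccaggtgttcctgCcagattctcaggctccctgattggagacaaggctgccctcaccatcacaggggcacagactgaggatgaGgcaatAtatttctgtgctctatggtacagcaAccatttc
They share 10.9 and 9.46% of the runs of 75 bases in their transcripts. Iglv2 stood at 106.1, 146 and 93.3 FPKM before culture and at 6.85, 2.66 and 2.23 FPKM after it, and the first of these was the highest Induced value of any V segment. Iglv1 stood at 31.2, 57.5 and 37.0 FPKM before and at 1.85, 0.490 and 0.773 FPKM after culture. Their log2 fold changes were -4.65 (SE 0.36, limma adjusted p = 5.7e-05) and -4.41 (SE 0.30, limma adjusted p = 1.5e-05). Iglv3, a weak segment at 3.03, 1.24 and 2.47 FPKM, was listed after culture only for mouse A, at 0.135 FPKM (log2 fold change -1.59, SE 0.21, limma adjusted p = 0.00027).

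Single V segments varied between mice more than the tested constants did. Among tested genes the highest Initial library was at the median 1.29 times the lowest for the 7 constants, 2.29 times for the 46 Ighv and 3.37 times for the 68 Igkv segments. A factor of at least 3 between Initial libraries occurred in 0 of 7 constants, 12 of 46 Ighv and 38 of 68 Igkv segments. The filter left out uneven constants, namely Igha at 0.331, 0.566 and 13.9 FPKM and Ighg2b at 0.504, 1.73 and 10.3 FPKM in the Initial libraries. It also left out Ighg1 and Ighg2c, which were near 0. Igkv14-126 went from 1.96 FPKM in Initial library A to 93.8 in B and 17.6 in C. In the mouse this segment pairs with Ighv11-2 in a known receptor of B-1 cells, innate-like B cells, that binds phosphatidylcholine. Ighv11-2, looked up after these values were seen, stood at 0.513, 22.6 and 11.2 FPKM, lowest in A and highest in B like its partner. After culture Igkv14-126 and Ighv11-2 were listed only in Induced library B, at 0.850 and 0.433 FPKM. The pair was picked for this pattern, and 3 mice cannot show whether the levels go together.
Other segments led in other mice. Igkv8-16 stood at 31.5, 4.14 and 5.70 FPKM and Igkv6-20 at 47.4, 5.37 and 8.97, highest in Initial library A. Both levels are less certain, since 69.8 and 59.5% of their runs of 75 bases are shared with 1 other gene each. Igkv3-7 stood at 3.33, 22.9 and 4.95 FPKM and Ighv1-78 at 6.82, 27.4 and 0.930, highest in B, and Igkv12-89 at 8.71, 12.2 and 62.9 and Igkv15-103 at 11.5, 9.12 and 43.0, highest in C. Of these, Ighv1-78 did not pass the filter. The other 5 fell, with limma adjusted p-values between 0.0012 and 0.010.
For a few of these uneven segments the call depended on single libraries. Igkv14-126 fell by 3.82 on the log2 scale (SE 1.20, limma adjusted p = 0.028), and the p rose to 0.077, 0.086 and 0.094 without Initial C, Induced A or Induced C. Igkv6-32 (3.07, 7.73 and 44.9 FPKM before culture, 0.944, 0.795 and 0.483 after) had an adjusted p of 0.025 in limma, which became 0.061 with the mouse as a block and 0.067, 0.051 and 0.088 without Induced A, B or C. Igkv6-14 (3.37, 22.6 and 1.20 FPKM before, 0.511, 0 and 0.151 after) had 0.045, which became 0.085 with the mouse as a block and 0.056, 0.090, 0.097 and 0.12 without Initial A or Induced A, B or C. Igkv4-63 (20.1, 4.43 and 2.61 FPKM before, 1.27, 0 and 0.231 after) had 0.020, which became 0.054 and 0.075 without Induced B or C.
Igkv6-13, the segment that did not pass, stood at 16.2, 1.13 and 1.77 FPKM before culture and at 0.436, 0.219 and 0.396 FPKM after it, with no overlap between groups. Its log2 fold change was -1.79 (SE 0.78, limma adjusted p = 0.080), and without Initial A it was -0.85 with an adjusted p of 0.0036 and without Initial B -2.36 with 0.032. It shares 12.6% of its runs of 75 bases with Igkv6-14 and Igkv6-15.

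**Figure D3:**
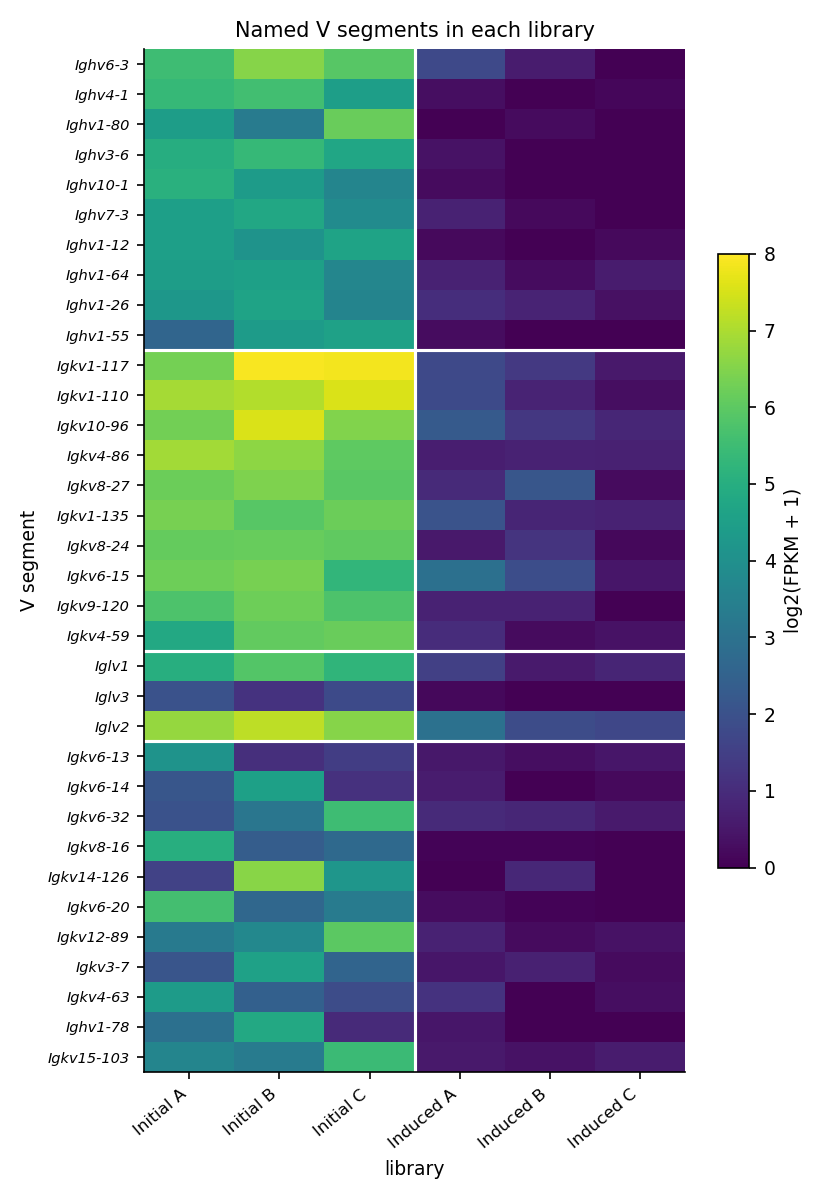
Level, as log2(FPKM + 1) by colour, of the named V segments (rows) in each library (columns). From the top, white lines part the 10 leading Ighv segments, the 10 leading Igkv segments, the 3 Iglv segments, and Igkv6-13 with the 10 segments that lead a ranking by the ratio of the highest Initial library to the next, where the brightest cell differs from row to row. The Induced columns are dark throughout, with Iglv2 and Igkv6-15 in library A the highest.

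No single segment dominated a library. In the Initial libraries the top Ighv segment held 7.89, 11.9 and 12.4% of Ighv FPKM, and the top Igkv segment 6.53, 10.2 and 11.4% of Igkv FPKM. In the Induced libraries the top shares were 10.5, 7.35 and 8.24% for Ighv and 10.6, 7.94 and 7.15% for Igkv, within or close to the same range although the sums were far lower. The effective number of segments (the inverse of the summed squared shares) ran from 23.8 to 30.9 for Ighv and from 26.1 to 34.7 for Igkv in the Initial libraries, and from 25.2 to 31.6 and from 28.6 to 34.3 in the Induced libraries. The ranges overlap for both loci. The leading Igkv segment changed: Igkv1-110 or Igkv1-117 led Igkv before culture, and Igkv6-15, Igkv8-27 and Igkv4-91 led after culture in mice A, B and C. Among Ighv, Ighv6-3 led in Initial A and B and again in Induced A. Ighv1-80 led in Initial C, and Ighv6-6 and Ighv1-64 led in Induced B and C. In the Induced libraries Igkv6-15, Igkv8-27 and Igkv4-91 led on about 51.8, 26.0 and 9.95 fragments. Ighv6-3, Ighv6-6 and Ighv1-64 led there on about 18.7, 6.58 and 4.81 fragments, so these ranks are uncertain.
By family, Ighv1, the largest with 59 listed segments, held 42.4, 41.7 and 48.8% of Ighv FPKM before culture and 52.4, 51.8 and 59.5% after it. The family Igkv1, which holds the close pair shown above, went from 17.1, 19.3 and 24.7% to 12.9, 8.52 and 8.67% of Igkv FPKM. Igkv6 went the other way, from 9.87, 7.36 and 6.10% to 19.9, 12.9 and 12.6%. In each of these 3 families the groups did not overlap. The same held for other families, among them Ighv3, Ighv4, Ighv7, Ighv9, Ighv10 and Igkv2. Igkv4, with 30 listed segments, held 22.5, 16.9 and 17.4% before and 15.3, 16.9 and 24.8% after culture and overlapped. These families were picked after their values were seen, and shares in the Induced libraries rest on few fragments.
Along the loci, the 25 Igkv segments farthest from the joining segments, Igkv12-98 to Igkv2-137, held 33.8, 36.3 and 43.9% of Igkv FPKM before culture and 32.7, 26.4 and 23.3% after it. Each of 3 blocks of 25 or 26 segments nearer to them held between 14.5 and 26.7% before culture. Across the 218 V segments, Pearson correlations of log2(FPKM + 1) were 0.79 to 0.82 between Initial libraries, 0.45 to 0.66 between Induced libraries and 0.47 to 0.67 between the groups. These are descriptions over segments that share libraries and differ in depth. Libraries of the same mouse, at 0.64, 0.65 and 0.49 for A, B and C, were not the most alike across groups, since Initial B with Induced A reached 0.67.

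The constants of the chains differed in the size of their drop, while summed Ighv and summed Igkv fell by similar ratios. The ratio of group means was 53.2 for Igkc and 50.1 for summed Igkv, 23.1 for the heavy constants and 47.2 for summed Ighv, and 16.3 for the lambda constants and 31.9 for summed Iglv. Without Induced A, the highest Induced library, the ratios were 70.7 and 69.3, 27.6 and 71.0, and 24.9 and 51.8 in the same order. Lambda made up 8.34, 8.94 and 7.87% of light chain constant FPKM before culture and 25.3, 17.1 and 27.6% after it, with no overlap. Among light chain V segments the lambda share was 7.11, 8.00 and 6.20% before and 12.1, 6.91 and 14.9% after culture, and there the groups overlapped.
The heavy share of all constants was 46.3, 45.3 and 42.8% before and 57.4, 58.8 and 71.7% after culture, while the heavy share of all V segments was 22.3, 23.3 and 21.3% before and 23.7, 20.5 and 24.0% after. V segment FPKM was also set against constant FPKM. Summed Ighv over the heavy constants was 0.426, 0.502 and 0.446 before and 0.284, 0.220 and 0.133 after culture, and summed Iglv over the lambda constants was 1.09, 1.23 and 0.970 before and 0.590, 0.493 and 0.577 after. Summed Igkv over Igkc overlapped between the groups, with 1.29, 1.38 and 1.25 before and 1.45, 1.37 and 1.26 after. No p is given for these sums, since their members were chosen together.

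**Figure D4:**
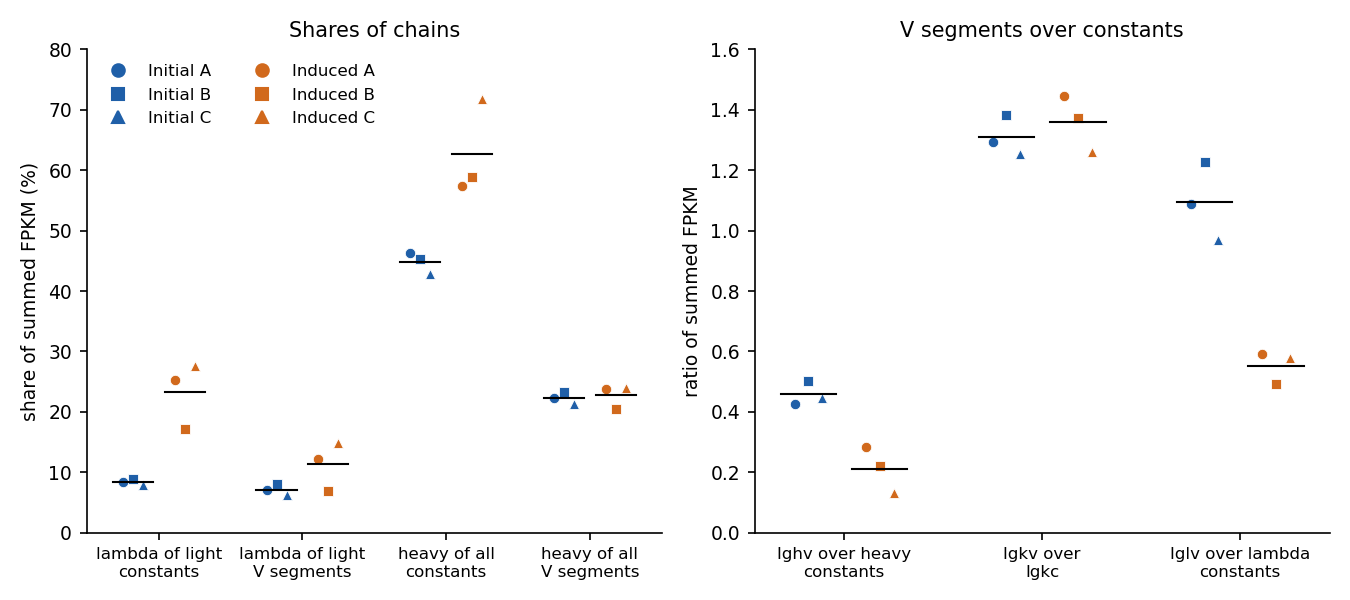
Left, share of summed FPKM (%) taken by lambda among light chain constants and V segments and by heavy chain among all constants and V segments. Right, summed V segment FPKM divided by constant FPKM for each chain. Points are libraries, bars are means of 3, and the constants differ between groups where the V segments overlap, and Igkv over Igkc overlaps as well.

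Relative to Cd79a, which encodes a signalling chain of the B cell receptor and is expressed across the B lineage, the immunoglobulin genes differed in their fall. Igkc was 20.7, 23.4 and 20.9 times Cd79a in the Initial libraries and 5.05, 4.73 and 4.85 times in the Induced libraries, with no overlap and little spread within a group. Ighm was 18.8, 20.3 and 16.0 times Cd79a before and 8.04, 7.43 and 16.2 times after culture, and the groups overlapped through Induced library C. Ighd was 0.426, 0.518 and 0.457 of Cd79a before and 0.751, 0.608 and 0.603 after culture, in the other direction.
Ratios between chains follow from those to Cd79a by division and are no separate observation. The ratio of Ighm to Igkc went from 0.907, 0.868 and 0.766 to 1.59, 1.57 and 3.35, and that of Iglc2 to Igkc from 0.0574, 0.0599 and 0.0501 to 0.188, 0.157 and 0.216. Against Ms4a1, which encodes CD20, Igkc went from 51.3, 51.4 and 46.6 to 8.78, 10.3 and 7.62. In all, 22 such ratios were computed after the values were seen. A two-sided exact permutation test gave p = 0.1 (0.12 adjusted over the 22) for each ratio whose groups did not overlap, the smallest p that 3 against 3 allows.

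**Figure D5:**
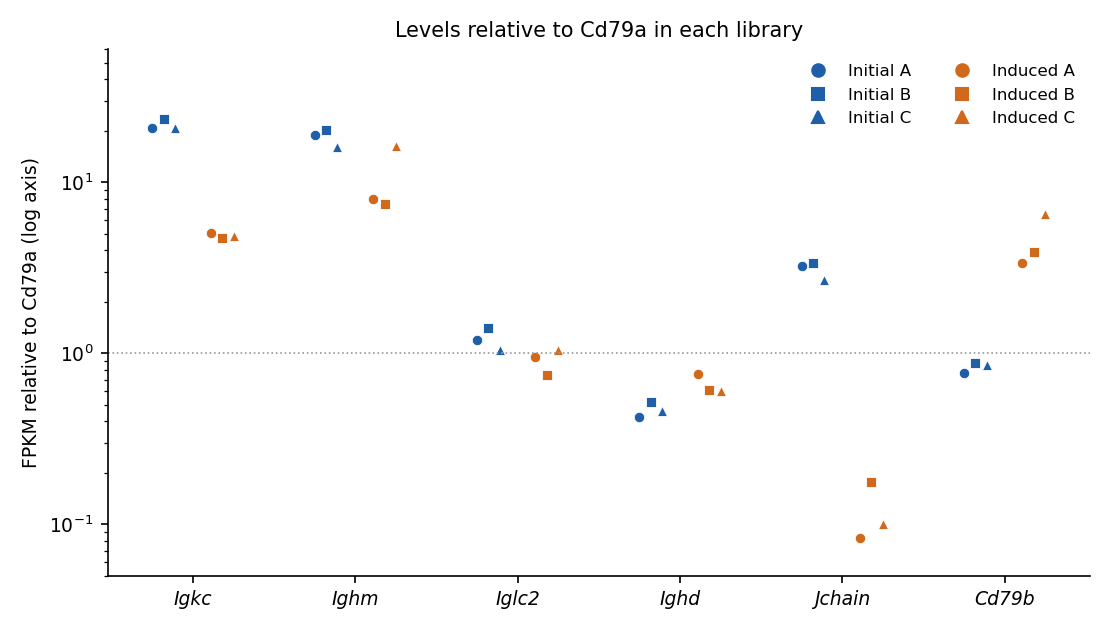
FPKM of 6 genes divided by that of Cd79a in each library, on a log axis, with a dotted line at 1. Igkc and Jchain lie lower after culture in every library, Cd79b higher, and Ighm overlaps through Induced library C.

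Genes that work with the immunoglobulin chains were read from lists, whose counts stand beside 33.1% of all tested genes that fell and 37.3% that rose. Of 19 tested genes of the B cell receptor and B cell identity, 18 fell and 1 rose. Cd79a stood at 68.5, 72.8 and 76.6 FPKM before culture and 8.78, 6.54 and 2.81 after it (log2 fold change -3.49, SE 0.33, limma adjusted p = 0.00014). Fcer2a, the low affinity IgE receptor CD23 of mature B cells, had the largest fall of the list on the log2(FPKM + 1) scale, which understates falls of lower genes such as Cr2, from 13.1, 17.2 and 15.9 to 0.723, 0.349 and 0.121 FPKM (log2 fold change -3.56, SE 0.18, limma adjusted p = 1.2e-06). Ms4a1 fell by 3.00 on the log2 scale (SE 0.26, limma adjusted p = 4.6e-05). Blk, a Src family kinase of B cells that mouse γδ T cells also express, rose from 21.2, 20.9 and 21.9 to 109.5, 113 and 73.0 FPKM (log2 fold change 2.13, SE 0.16, limma adjusted p = 1.3e-05). Cd79b, the partner of Cd79a, fell less, from 52.6, 64.2 and 65.8 to 29.4, 25.6 and 18.4 FPKM.

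Of 14 tested genes of plasma cells and antibody secretion, 6 fell, 5 rose and 3 did not pass, shares near those of all tested genes. Jchain, the joining chain of polymeric IgM and IgA, stood at 221, 247 and 205 FPKM before and 0.726, 1.15 and 0.284 FPKM after culture, and fell by 7.06 on the log2 scale (SE 0.18, limma adjusted p = 8.9e-08). Relative to Cd79a it went from 3.23, 3.39 and 2.67 to 0.0828, 0.177 and 0.101. Mzb1, a chaperone of IgM assembly, fell from 10.3, 10.9 and 11.2 to 1.53, 1.02 and 0.269 FPKM. The 5 genes that rose include Edem1, of protein degradation from the endoplasmic reticulum, from 41.8, 43.0 and 39.7 to 84.7, 84.0 and 75.4 FPKM, and Prdm1, which encodes the plasma cell regulator Blimp-1 that activated T cells also express, from 4.17, 2.45 and 2.72 to 7.83, 6.80 and 4.72 FPKM. Sdc1, the plasma cell surface marker CD138, stood at 1.84, 1.27 and 1.91 FPKM before and 2.78, 3.24 and 1.38 FPKM after culture and did not pass, and Tnfrsf17, the receptor BCMA of plasma cells, was listed at no more than 0.325 FPKM in any library.

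Of the genes of rearrangement and of B cell precursors, Rag1, Igll1, Vpreb1 and Vpreb3 had low levels. Rag1, of the V(D)J recombinase, stayed at or under 0.0246 FPKM. Igll1 and Vpreb1, of the surrogate light chain of B cell precursors, stayed at or under 0.0207 and 0.294 FPKM, while Vpreb3, also of B cell precursors, stood at 0.814, 1.59 and 1.58 FPKM before and 0.0578, 0 and 0 after culture. Of the 6 tested genes of the list for rearrangement and class switching, 2 fell, 3 rose and 1 did not pass. Dntt, which adds bases at rearranging junctions, fell from 4.36, 4.26 and 4.21 to 0.0527, 0.104 and 0 FPKM. The genes that rose, Ung, Msh6 and Xrcc6, act in general DNA repair.
Among 10 tested factors that bind immunoglobulin promoters and enhancers, 7 fell, 0 rose and 3 did not pass. Pou2af1, the octamer coactivator OBF-1, fell from 9.15, 13.9 and 12.4 to 1.02, 0.767 and 0.766 FPKM (log2 fold change -2.78, SE 0.15, limma adjusted p = 2.2e-06), while its widely expressed partner Pou2f1 stood at 6.42, 8.83 and 7.46 before and 7.61, 7.80 and 8.18 FPKM after culture. Of 8 tested genes of marginal zone and B-1 cells, 5 fell, 1 rose and 2 did not pass. Cr2, the complement receptor of marginal zone B cells, fell from 9.83, 11.5 and 8.76 to 0.182, 0.124 and 0.0700 FPKM. Dtx1, a Notch pathway ligase that lymphocytes of several kinds express, stood at 150.7, 156 and 162 FPKM before culture and fell by 6.42 on the log2 scale (SE 0.15, limma adjusted p = 6.0e-08). Of 8 tested Fc receptors and antibody transport genes, 7 fell and 1, Trim21, rose. Fcgr3, an IgG receptor of macrophages and natural killer cells, fell from 39.5, 33.7 and 24.0 to 0.0966, 0.161 and 0.334 FPKM.

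Markers of other cells moved beside the immunoglobulin genes. All 10 macrophage markers fell, and their summed level was 545 to 1056 FPKM in the Initial and 3.80 to 5.79 FPKM in the Induced libraries, with Mertk not listed after culture. All 6 red cell markers fell, from 1217 to 1742 FPKM summed before culture to 1.17 to 1.63 FPKM after it, with Alas2 not listed after culture. For dendritic cells 3 of 6 markers fell, 2 rose and 1 did not pass, with sums of 13.2 to 17.04 and 6.86 to 16.0 FPKM, and no neutrophil marker passed the filter, with sums of 0.0850 to 15.2 and 0.503 to 4.67 FPKM. The summed level of the 20 B cell genes was 442 to 503 FPKM before and 123 to 204 FPKM after culture, and Blk and Cd79b made up much of the latter. The T cell markers Cd3d, Cd3e, Cd3g, Cd247 and Trdc summed to 1560 to 1696 FPKM before and 1378 to 1502 FPKM after culture, with 2 of 5 lower and 3 not past the threshold. The part of these other cells in the fall of the immunoglobulin genes was not tested.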

How the data were processed

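Messenger RNA of 6 libraries was sequenced after preparation with the VAHTS mRNA-seq v2 kit, per the labels' protocols. The deposited values are FPKM per gene, computed by the authors with Cuffdiff, per the labels' protocols. The submitters' processing notes name CASAVA, HISAT2 2.0.5, Cuffdiff 1.3.0 and 2.2.1 and the build mm9. The positions in the tables follow GRCm38, since the GENCODE vM21 span of 228 of the 229 genes lies inside the listed locus, so coordinates and sequences are taken from that annotation. Read length, strand and the handling of reads that fit several segments are not given in the sources used here. No listed value is 0, and a gene without a row was taken as 0. Depth was estimated from the steps of low values, of which 46.3 to 51.1% lay within 0.15 of a whole fragment where chance gives 30%, so depths are rough, and they cover counting error only.

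All genes were fitted together with limma 3.58.1 in R 4.3.3 on log2(FPKM + 1), with robust, trended variances and no block, by two-sided tests adjusted after Benjamini and Hochberg over the 11265 genes with at least 1 FPKM in at least 3 libraries. A gene was called at an adjusted p under 0.05. Fold changes on this scale understate those of low genes. The test was checked on simulated data. The labels give the same mouse letters in both groups, which pairs the libraries by animal. Deviations from the group means correlated at 0.039, 0.031 and 0.13 within mice A, B and C and at -0.13 to 0.099 between mice. Replicates are 1 library per mouse and group. The members and lists were chosen with earlier results of these data known. Named genes are the 11 constants, the 10 Ighv and 10 Igkv segments with the highest mean, all Iglv, the 5 highest members of each Induced library, tested members that did not fall, up to 10 V segments of at least 20 FPKM in 1 Initial library and at least 3 times the next, and the 2 largest rises and falls of each list, with Jchain, Cd79a and Ms4a1. Some genes the rule or the lists take are not reported here. Further members and list genes were named after their values were seen. Lists overlap in Cr2, Pou2af1, Spib, Irf4, Fcmr, Ebf1 and Pax5. Alternatives were pseudocounts, filters, scalings, a fit blocked by mouse, the untrended moderated test and dropping single libraries. A search of V segment promoters was not run. The other steps used Python 3.11.15, pandas 2.3.3, scipy 1.17.1 and matplotlib 3.10.9.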

Additional observations from a re-analysis of the deposited data

How the results depend on the processing

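The number of immunoglobulin genes that fell was 123 as reported and 74 with a filter at 5 FPKM, where 74 genes were tested and each fell. It was 146 without a filter, 114 and 124 with pseudocounts of 5 and 0.1, and between 116 and 123 under the scalings and the ordinary moderated test. None rose in any of these. Each filter kept these genes through their Initial values, so the filtered counts are not evidence of a fall. Without a filter, 63.8% of the 229 genes fell, where 17.9% of all listed genes did. With the mouse as a replicate block, 119 fell: the paired fit lost Ighv9-1, Igkv4-58, Igkv6-14 and Igkv6-32 and changed no other call among the members. Leaving out each library in turn gave 111 to 123, and the ratio of summed levels, 37.7, ran from 31.3 to 49.6 when a library was left out and was 34.0 after scaling to the summed CD3 chains and Trdc. That scaling moved the median log2 fold change of all tested genes from 0.03 to 0.18. The lambda share of light constants kept its difference with FPKM times exon length (8.64 and 23.9%). The mean number of genes detected at 1 FPKM, 152.7 in Initial and 19.0 in Induced libraries, was 204.7 and 117.7 with any listed value and 105.0 and 3.33 at 5 FPKM. Over the 60 named genes with a test, 918 alternative values kept direction and call, 28 lost the call and 3 gained it, and none reversed. Xrcc5, which fell by 0.45 on the log2 scale with a limma adjusted p of 0.019, was not called under the CD3 scaling (0.13) or without Initial A (0.059), Induced A (0.069) or Induced B (0.065). Levels of V segments in Induced libraries rest on few fragments, which limits what their usage can show.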

Other observations

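Immunoglobulin transcripts left after culture were led by constants rather than V segments, as they were before culture. After culture the highest member was Ighm for mice A, B and C alike, at 70.5, 48.5 and 45.7 FPKM, followed by Igkc and Iglc2. V segments made up 46.9, 49.4 and 47.2% of the summed FPKM of all members in the Initial libraries and 40.7, 38.8 and 28.5% in the Induced libraries, and Ighm plus Igkc 49.9, 47.1 and 49.1% and 48.9, 53.7 and 63.6%. Induced library C held the lowest summed level, 93.3 FPKM, and the highest ratio of Ighm to Igkc, 3.35. Among Fc receptor genes, Fcgrt, the neonatal Fc receptor, stood at 31.3, 25.5 and 20.8 FPKM before and 1.91, 0.627 and 10.97 FPKM after culture (limma adjusted p = 0.012), so that Induced library C lay closer to the Initial libraries. Cd68, a marker of macrophages, was also highest there among Induced libraries, at 1.69, 0.746 and 3.86 FPKM. No other listed macrophage marker was highest in Induced library C. Adgre1, C1qa, C1qc, Csf1r and Lyz2 were lowest there, with Lyz2 at 1.68, 2.13 and 1.45 FPKM in Induced A, B and C.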
